A study of Homo sapiens with 4 samples.

Results

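PMAIP1, BCL2L11 and BMF encode NOXA, BIM and BMF, members of the BH3-only group of the BCL2 family. On the arrays studied here they are represented by 4 probe sets, 1 each for PMAIP1 (16852683) and BCL2L11 (16884335) and 2 for BMF (16807324 and 16799423). They were taken by symbol from the platform annotation, 3 genes of 14884 with a symbol, and 4 probe sets of 16098 that carry 1 symbol and 53617 in all. The 3 genes were chosen by their measured differences between treated and untreated cells on these same 4 arrays, so their differences are given as a description, with no test.

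Total RNA came from pellets of HUT78, a human T-cell line established from a patient with Sézary syndrome, a leukaemic cutaneous lymphoma, and grown in serum-containing IMDM medium. In the treated group, 2 samples had received CSH71, a compound, at 250 nM for 30 h. The other 2 samples were untreated, and no label says whether they received a vehicle. The series concerns chemicals against the lipid-binding domain of p38γ, a mitogen-activated protein kinase, and CSH71 is one of them. Each sample was hybridised to 1 Affymetrix whole-transcript array, and the deposited values are linear intensities. The labels do not say that duplicates were separate cultures, so the spread between them may be technical, and 1 line cannot speak for other lymphoma cells.

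BH3-only proteins are the sensors of the mitochondrial route of apoptosis. They share a short helix, the BH3 domain, which fits into a groove of the pro-survival proteins BCL2, BCL-XL (encoded by BCL2L1), MCL1 and A1 (encoded by BCL2A1) and so frees or activates the pore-forming proteins BAX and BAK. NOXA binds MCL1 and A1 and can send MCL1 to degradation, whereas BIM binds all pro-survival members and BMF binds several. BIM and BMF can be held on dynein light chains of the cytoskeleton, and BIM is required for the removal of T cells when an immune response ends. PMAIP1 is induced by ATF4 and related stress factors, while BCL2L11 is a known target of FOXO factors.

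The RefSeq start sites of these genes lie on chromosomes 18 (PMAIP1), 2 (BCL2L11) and 15 (BMF). The 250 bases before each start are shown with short transcription factor motifs marked. Whether these motifs relate to the differences between the arrays was not tested. Sequences run 5′ to 3′ on the strand of the gene, from RefSeq on GRCh38.p14, and all 3 genes were matched by symbol. Capitals mark matches to TGACG (the core of the cAMP response element that ATF and CREB factors bind), to GTAAACA (the forkhead core bound by FOXO factors) or to the AP-1 element TGANTCA, on either strand. The windows are chr18:59899746-59899995 (plus strand) for PMAIP1, chr2:111120664-111120913 (plus strand) for BCL2L11, and, for 2 start sites of BMF, chr15:40108880-40109129 and chr15:40106967-40107216 (minus strand).
PMAIP1: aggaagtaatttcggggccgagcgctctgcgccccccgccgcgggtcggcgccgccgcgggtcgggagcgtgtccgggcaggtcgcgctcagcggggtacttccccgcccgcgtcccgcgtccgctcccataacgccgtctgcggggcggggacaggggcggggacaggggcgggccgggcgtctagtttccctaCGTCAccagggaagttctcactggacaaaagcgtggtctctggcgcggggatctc
BCL2L11: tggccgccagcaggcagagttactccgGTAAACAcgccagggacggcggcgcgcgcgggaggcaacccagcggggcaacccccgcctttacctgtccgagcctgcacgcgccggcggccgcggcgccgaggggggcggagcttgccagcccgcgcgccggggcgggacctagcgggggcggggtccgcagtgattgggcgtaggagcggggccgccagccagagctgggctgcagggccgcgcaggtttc
BMF, upstream start: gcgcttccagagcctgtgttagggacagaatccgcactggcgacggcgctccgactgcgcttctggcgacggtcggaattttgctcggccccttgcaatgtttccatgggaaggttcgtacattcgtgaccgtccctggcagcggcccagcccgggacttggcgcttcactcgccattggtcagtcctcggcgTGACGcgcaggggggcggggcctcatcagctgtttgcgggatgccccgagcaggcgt
BMF, downstream start: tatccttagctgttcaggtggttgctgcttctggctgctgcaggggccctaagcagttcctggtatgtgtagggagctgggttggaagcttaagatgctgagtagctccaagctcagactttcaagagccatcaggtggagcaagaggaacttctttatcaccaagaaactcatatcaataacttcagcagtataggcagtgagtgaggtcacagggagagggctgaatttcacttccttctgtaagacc

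The PMAIP1 window held 1 match to TGACG, read on the opposite strand as CGTCA, which began 55 bases before the start. The upstream BMF window held 1 as well, 57 bases before its start, and the BCL2L11 and downstream BMF windows held 0. Of 35116 RefSeq promoter windows of the same length, 21.2% held this motif. The BCL2L11 window held 1 match to GTAAACA, 223 bases before the start, a motif found in 2.98% of all windows, and the other 3 windows held 0. None of the 4 windows held TGANTCA (6.57% of all windows), the full element TGACGTCA (1.65%) or TGATGNAA, the core of the composite element of ATF4 and C/EBP factors (3.14%). The GC box GGGCGG occurred 4 times before PMAIP1, 3 times before BCL2L11 and 1 time before the upstream BMF start, and 42.6% of all windows held it. CCAAT was matched 1 time each before BCL2L11 and the upstream BMF start (32.0% of all windows), and TATAAA in none of the 4 (10.7%). TGACG is contained in TGACGTCA, and none of the other matches reported overlap. GC content was 72.8% for PMAIP1, 76.8% for BCL2L11, 65.2% for the upstream and 48.8% for the downstream BMF window, against a median of 58.0%. These matches describe letters in the windows only.

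PMAIP1, which encodes NOXA, had intensities of 407 and 520 in untreated replicates 1 and 2, and of 902 and 874 in CSH71 replicates 1 and 2. Both treated arrays lay above both untreated arrays. The group means were 464 ± 80.1 and 888 ± 20.1 (SD, n = 2 each), a ratio of 1.91, and the spread was wider between the untreated arrays. On the log2(intensity + 16) scale, on which all log2 differences here are given, PMAIP1 was 0.92 ± 0.19 higher (SE) in treated cells. The SE comes from limma, which draws each probe set's variance towards that of all probe sets. Single treated-to-untreated differences ran from 0.73 to 1.12, against 0.34 for untreated replicate 2 minus 1 and -0.05 for CSH71 replicate 2 minus 1. In bulk RNA, a change in the RNA per cell and a change in the share of cells that carry it cannot be told apart.

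BCL2L11, which encodes BIM, had intensities of 2049 and 2092 in the untreated replicates and of 1319 and 1220 in the CSH71 replicates. Both treated arrays lay below both untreated arrays, so this gene differed in the direction opposite to PMAIP1. The means were 2071 ± 30.7 and 1270 ± 70.5 (SD, n = 2 each), so that the treated mean was 61.3% of the untreated one. The log2 difference was -0.70 ± 0.17 (SE). Single treated-to-untreated differences lay in a narrow band, from -0.77 to -0.63, and replicates differed by 0.03 (untreated) and -0.11 (treated). The probe set gives 1 value for the gene and does not separate the splice forms of BIM.

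**Figure D1:**
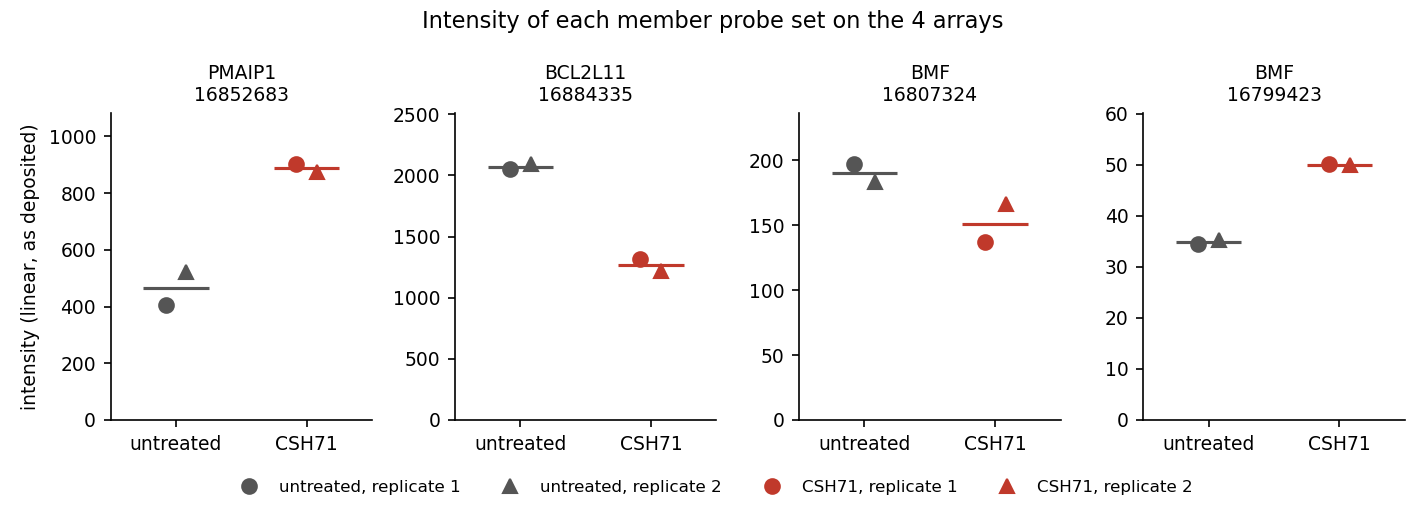
Linear intensity as deposited (vertical axes, starting at 0, scaled separately) of the 4 probe sets in untreated and CSH71-treated cells; circles are replicate 1, triangles replicate 2 and lines the group means. PMAIP1 means are 464 and 888, BCL2L11 means 2071 and 1270, and the 2 BMF probe sets lie on opposite sides, from 190 to 151 and from 34.9 to 50.0.

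BMF gave different pictures through its 2 probe sets. Probe set 16807324 had intensities of 197 and 183 in the untreated replicates and of 137 and 166 in the CSH71 replicates. Its treated arrays lay below its untreated arrays, but the lower untreated and the higher treated value were close. The means were 190 ± 9.72 and 151 ± 20.0 (SD, n = 2 each), and the log2 difference was -0.31 ± 0.18 (SE). Single differences ran from -0.48 to -0.14, and the treated replicates themselves differed by 0.24. The size of this difference depended on the treated arrays: it was -0.18 without CSH71 replicate 1 and -0.43 without CSH71 replicate 2.

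Probe set 16799423, also annotated to BMF, had intensities of 34.4 and 35.3 untreated and of 50.1 and 50.0 treated. Here both treated arrays lay above both untreated ones, the reverse of the other BMF probe set. The means were 34.9 ± 0.629 and 50.0 ± 0.0990 (SD, n = 2 each), and the log2 difference was 0.38 ± 0.16 (SE), of which most of the SE is the variance borrowed from other probe sets. This probe set was among the dimmest 40% of named probe sets by mean, the other 3 were not, and no background level is given for either group. At such values the log2 difference depends on the added constant, and it was 0.51 with a constant of 1 and 0.21 with a constant of 64. When the intensities of both BMF probe sets were averaged, the difference was -0.14 ± 0.17.

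No source used here gives the strand that each probe set reads, so the genes of the probe sets with nearby numbers were read instead. The 20 named probe sets next to each in number order were taken, equally many on each side. Of those around 16807324, 17 belonged to a gene other than BMF with a strand in RefSeq. Of these genes, 15 lay on the minus strand, as BMF does. Around 16799423, 15 of 17 such genes lay on the plus strand, opposite to BMF. The corresponding counts were 15 of 15 on the plus strand around PMAIP1 and 17 of 18 on the plus strand around BCL2L11, both genes of the plus strand. Probe set 16799423 therefore stands among probe sets of plus-strand genes while carrying the name of a minus-strand gene. Whether it reads BMF RNA or RNA from the other strand was not tested.

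Set among the 16098 named probe sets, the median log2 difference was -0.01, and duplicates differed by a median of 0.22 (untreated) and 0.20 (treated) in absolute value. As far up as PMAIP1 or farther lay 55 probe sets, PMAIP1 included, or 0.342% of all, and as far down as BCL2L11 or farther lay 50, or 0.311%. The BMF probe sets stood in more crowded ranges, with 7.67% of probe sets at least as far down as 16807324 and 6.40% at least as far up as 16799423. Over all named probe sets, 0.0435% (7 of 16098) passed an adjusted p under 0.05 in limma and 822 had an unadjusted p under 0.05. Groups did not overlap for 31.7% of all, nor for any of the 4, which were chosen on this comparison.

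**Figure D2:**
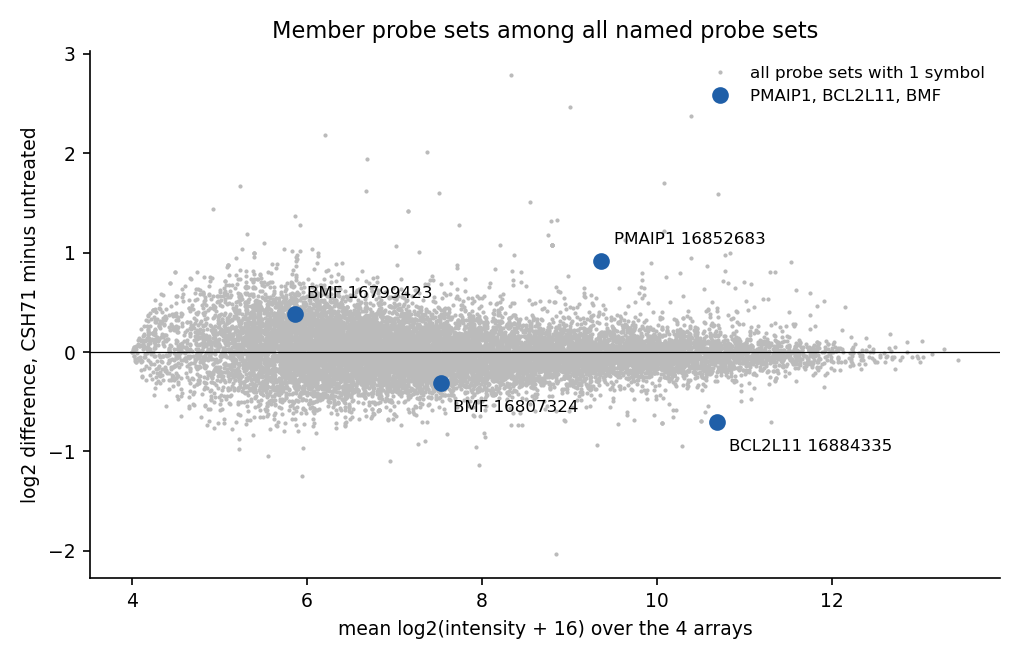
Log2 difference (CSH71 minus untreated, vertical axis) against the mean log2(intensity + 16) over the 4 arrays (horizontal axis) for 16098 named probe sets in grey and the 4 member probe sets in blue. PMAIP1 at 0.92 and BCL2L11 at -0.70 lie at the edges of the cloud at their brightness, while the BMF probe sets at -0.31 and 0.38 lie within it.

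The other BH3-only genes measured were BBC3, which encodes PUMA, BAD, which is controlled by phosphorylation, BID, which is cleaved by caspase-8, and BIK. None of these 4 passed the limma threshold (each adjusted p = 0.998, and 0 at an unadjusted p under 0.05). BBC3 had intensities of 107 and 114 untreated and of 115 and 149 treated, a log2 difference of 0.22 ± 0.19 (SE). BAD was at -0.13 ± 0.17, BIK at -0.06 ± 0.17 and BID at -0.04 ± 0.17. All 4 lay between -0.13 and 0.22. HRK, the remaining listed BH3-only gene, was not analysed here.

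Among pro-survival genes, which encode the proteins that NOXA, BIM and BMF bind, 0 of 4 measured passed the limma threshold (0 at an unadjusted p under 0.05). MCL1, the main partner of NOXA, had intensities of 1204 and 1182 untreated and of 1426 and 1440 treated, a log2 difference of 0.26 ± 0.16 (SE, adjusted p = 0.998). Its groups did not overlap, and the means were 1193 ± 15.6 and 1433 ± 10.2 (SD, n = 2 each). BCL2 was at 458 and 567 untreated and 670 and 622 treated (0.33 ± 0.19), and BCL2A1, which encodes A1, was at 0.15 ± 0.17. BCL2L1, which encodes BCL-XL, had the opposite sign at -0.17 ± 0.17, with means of 7118 ± 197 and 6331 ± 9.98. The groups of all 4 did not overlap, with the treated arrays above for 3 and below for BCL2L1, and 31.7% of all probe sets did not overlap either. The median of the list was 0.20 against -0.01 over all probe sets. BCL2L2, the remaining listed pro-survival gene, was not analysed here.

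Among the pore-forming genes, BAX and BAK1 had wide replicate spreads. BAX was at 143 and 162 untreated and at 169 and 91.5 treated, so its treated replicates lay on either side of the untreated ones (-0.26 ± 0.27, SE). BAK1 was at 145 and 238 untreated and at 225 and 186 treated (0.12 ± 0.25), and BOK, a related protein, was at 0.07 ± 0.19. The outer-membrane channels VDAC1, VDAC2, to which BAK binds, and VDAC3 were at -0.09, 0.04 and -0.04. In this list 0 of 6 passed the limma threshold (0 at an unadjusted p under 0.05), and the groups of BAX, BAK1 and BOK overlapped. Over the 14 measured BH3-only, pro-survival and effector genes other than the 3 members, differences ran from -0.26 to 0.33, with 7 above and 7 below 0.

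**Figure D3:**
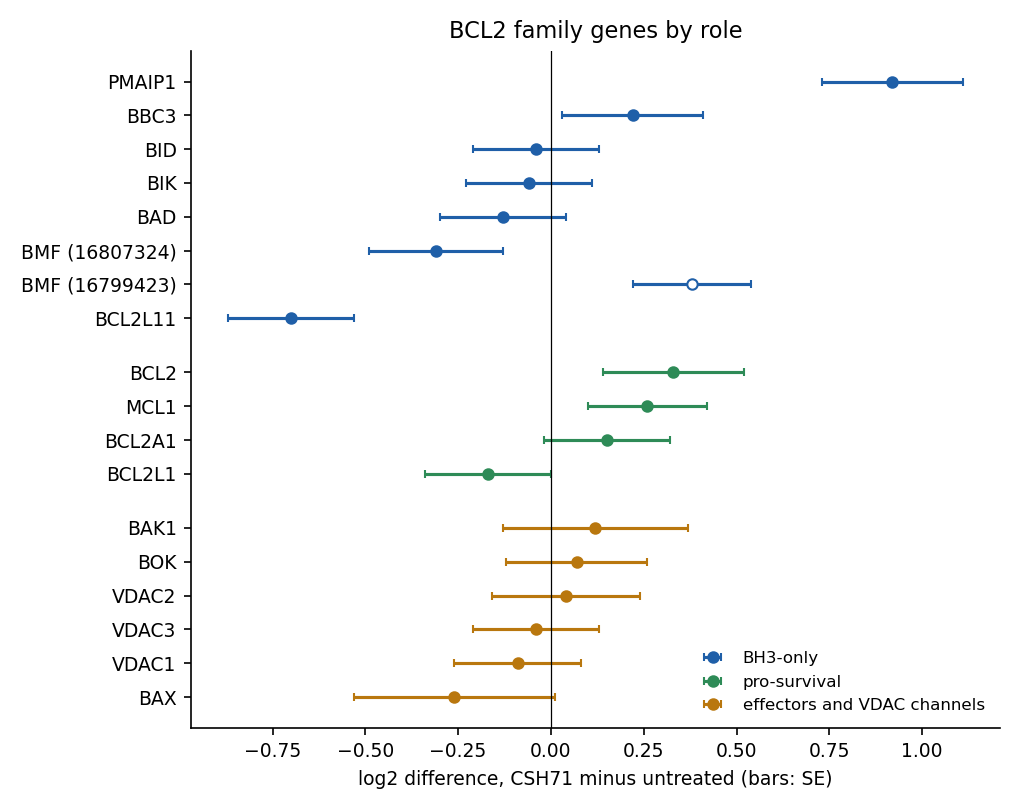
Log2 difference (CSH71 minus untreated, horizontal axis, bars are SE from limma, n = 2 per group) of the measured BH3-only, pro-survival and effector genes, with both BMF probe sets. The 14 genes that are not members lie between -0.26 and 0.33; PMAIP1 at 0.92 and BCL2L11 at -0.70 were chosen by their differences.

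Further relatives of the family carry BH3-like stretches or bind BCL2 proteins. Of 9 measured, 0 passed in limma (0 at an unadjusted p under 0.05). A negative log2 difference was seen for 8, against 8315 of all 16098 named probe sets, and the median was -0.12 against -0.01 over all. BCL2L13, an outer-membrane protein of the family, was at 293 and 312 untreated and 224 and 228 treated (-0.40 ± 0.17, SE, adjusted p = 0.968). BCLAF1, a nuclear protein found through its binding to BCL2 proteins, was at -0.32 ± 0.17 and BCL2L14 at -0.29 ± 0.30.

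Downstream of the mitochondrion, 3 of 15 listed genes of the apoptosome and caspases were measured, and the other 12 were not analysed here. None of the 3 passed in limma (0 at an unadjusted p under 0.05). APAF1, the scaffold of the apoptosome, was at 0.03 ± 0.22, HTRA2, a mitochondrial protease, at -0.02 ± 0.17 and ENDOG, a mitochondrial nuclease, at -0.21 ± 0.18. Of 5 measured inhibitor of apoptosis genes, 0 passed (0 at an unadjusted p under 0.05), with BIRC2, which encodes the ubiquitin ligase cIAP1, at 0.27 ± 0.17, BIRC5, which encodes the mitotic protein survivin, at -0.19 ± 0.17 and BIRC7 at 0.13 ± 0.17.

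Enzymes that set how long BIM, NOXA and MCL1 last were also listed. Of 10 measured, 0 passed in limma (1 at an unadjusted p under 0.05), and the median was 0.00. TRIM2, a ubiquitin ligase for which BIM is a reported substrate, had intensities of 129 and 103 untreated and of 82.3 and 78.5 treated (-0.45 ± 0.18, SE, adjusted p = 0.964). WSB2, a substrate receptor of a cullin ligase, was at -0.21 ± 0.20, and FBXW11, a substrate receptor that takes phosphorylated BIM, at 0.18 ± 0.20. The dynein light chain genes DYNLL1 and DYNLL2 were not analysed here.

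Transcription factors with known roles at BH3-only promoters included the one listed gene that passed outside the members. Of 20 measured, JUN rose (adjusted p = 0.0288 in limma), 0 fell and 19 did not pass. An unadjusted p under 0.05 was reached by 5, JUN included, against 822 of all 16098 named probe sets. The median was 0.11 against -0.01 over all. JUN, an AP-1 subunit activated by stress kinases, was at 88.7 and 127 untreated and at 857 and 800 treated, a log2 difference of 2.79 ± 0.21 (SE). EGR1, an immediate early factor, was at 1.60 ± 0.16 (adjusted p = 0.0631) through 1 probe set and 0.07 through the other, and JUND, another AP-1 subunit, at 0.82 ± 0.17 (0.679). The calls of JUN, and of all 7 genes, were lost without untreated replicate 1 and without untreated replicate 2.

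Factors tied by textbook knowledge to PMAIP1 or BCL2L11 were also read, a choice made after their values were seen. ATF4, which acts on PMAIP1 in the integrated stress response, was at 3195 and 2989 untreated and 4134 and 4356 treated (0.46 ± 0.17, SE, adjusted p = 0.925 in limma). Its groups did not overlap, as was true of 31.7% of all named probe sets. ATF3, a stress-induced factor, was at 30.0 and 39.3 untreated and 67.9 and 89.4 treated (0.90 ± 0.20, adjusted p = 0.800), and DDIT3, which encodes CHOP, was at 0.33 ± 0.19 (0.998). None of the 3 passed. ATF3 and DDIT3 were dim, with mean log2 values of 6.11 and 6.71 against a median of 7.21 over all named probe sets. At low values a log2 difference depends on the added constant. For BCL2L11, the FOXO genes were at 0.15 ± 0.18 (FOXO1), 0.01 ± 0.18 (FOXO3) and 0.31 ± 0.18 (FOXO4), each with an adjusted p of 0.998.

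Known targets of the same stress and FOXO factors were read as lists. Of 9 measured targets of the integrated stress response, 0 passed in limma (0 at an unadjusted p under 0.05). Positive differences were seen for 6, against 7780 of all 16098 named probe sets, and the median was 0.10 against -0.01 over all. Examples are VLDLR, a lipoprotein receptor, at 0.33 ± 0.18 (SE), ASNS, asparagine synthetase, at 0.27 ± 0.17 and DDIT4, an inhibitor of mTORC1, at 0.15 ± 0.17. VLDLR was dim, with a mean log2 value of 6.29 against a median of 7.21 over all named probe sets.

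Of 13 measured genes known as FOXO targets, 0 passed and 4 had an unadjusted p under 0.05 in limma, against 822 of all 16098 named probe sets. A positive difference was seen for 9 and a negative one for 4, against 7780 and 8315 over all named probe sets. The median was 0.31 against -0.01 over all probe sets. KLF6, a transcription factor, was at 0.87 ± 0.18 (SE, adjusted p = 0.679), IL7R, the receptor of the T-cell survival cytokine IL-7, at 0.71 ± 0.18 (0.890) and BCL6, a transcriptional repressor, at 0.59 ± 0.17 (0.914). CCR7, a homing receptor and the fourth of the 4, had the opposite sign, with 2430 and 2576 untreated and 1896 and 1722 treated (-0.47 ± 0.17, adjusted p = 0.925), and is named after its value was seen. Several of these genes are also known to respond to T-cell activation. Of 10 measured kinases that act on BIM or BMF or belong to the same families, 0 passed (1 at an unadjusted p under 0.05). SGK1, a kinase that can phosphorylate FOXO3, was at 525 and 646 untreated and 1959 and 1908 treated (1.70 ± 0.18, adjusted p = 0.0682), with MAPK10, a JNK kinase, at -0.19 ± 0.23 and AKT2 at -0.09 ± 0.17.

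**Figure D4:**
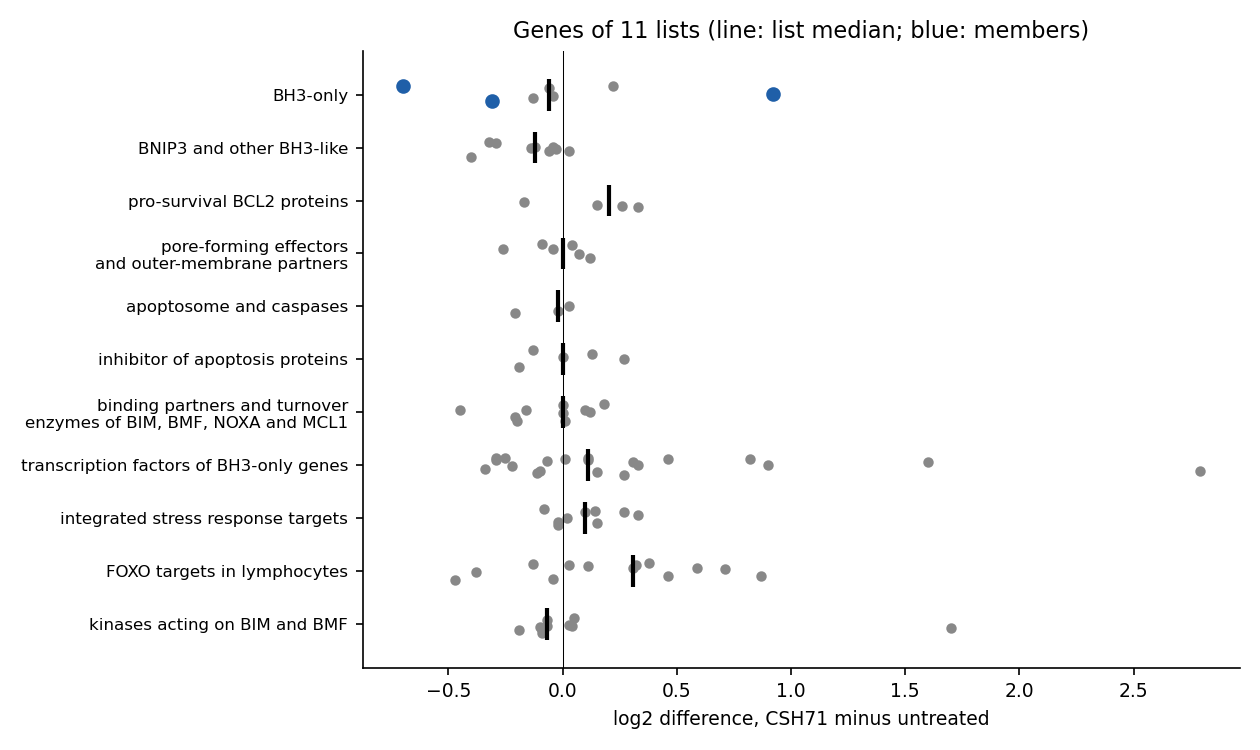
Log2 difference (CSH71 minus untreated, horizontal axis) of each measured gene of 11 lists, 1 point a gene by its brightest probe set, with black lines for list medians and blue points for PMAIP1, BCL2L11 and BMF. List medians lie between -0.12 and 0.31, and JUN at 2.79 is the single listed gene past the threshold.

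The probe sets whose course over the 4 arrays was most like that of a member were found by the Euclidean distance between log2 profiles centred on their mean, over 8048 probe sets of other genes at or above the median brightness. With 4 arrays, such likeness describes these arrays alone. For PMAIP1 the nearest were GPR137B, a lysosomal membrane protein (distance 0.062, log2 difference 0.90), ZBTB10 (0.069, 0.88) and VCAM1, an adhesion molecule (0.107, 0.85). For BCL2L11 they were the antisense transcript TRG-AS1 of the T-cell receptor gamma locus (0.042, -0.73), NRROS, a protein that holds latent TGF-beta (0.062, -0.65), and LINC02245 (0.095, -0.70). For BMF probe set 16807324 they were APC2 (0.060, -0.27), MMP25 (0.076, -0.31) and NHLH2 (0.078, -0.23), and for 16799423 LMBR1 (0.019, 0.37), DCP1A (0.033, 0.40) and PDHA2 (0.034, 0.37).

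The differences of the members were recomputed under 16 alternatives for PMAIP1, BCL2L11 and BMF probe set 16807324, and 14 for 16799423, which the filter on dim probe sets and the choice of 1 probe set a gene leave out. Most of these could not change a sign, since they keep the difference as it was or leave out 1 array of groups that do not overlap. PMAIP1 ran from 0.75 without untreated replicate 1 to 1.10 without untreated replicate 2. BCL2L11 ran from -0.76 to -0.64. BMF probe set 16807324 by itself ran from -0.43 to -0.18, and the mean of both BMF probe sets was -0.14. BMF probe set 16799423 was positive in all but the mean of both BMF probe sets, which is dominated by the brighter one.

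**Figure D5:**
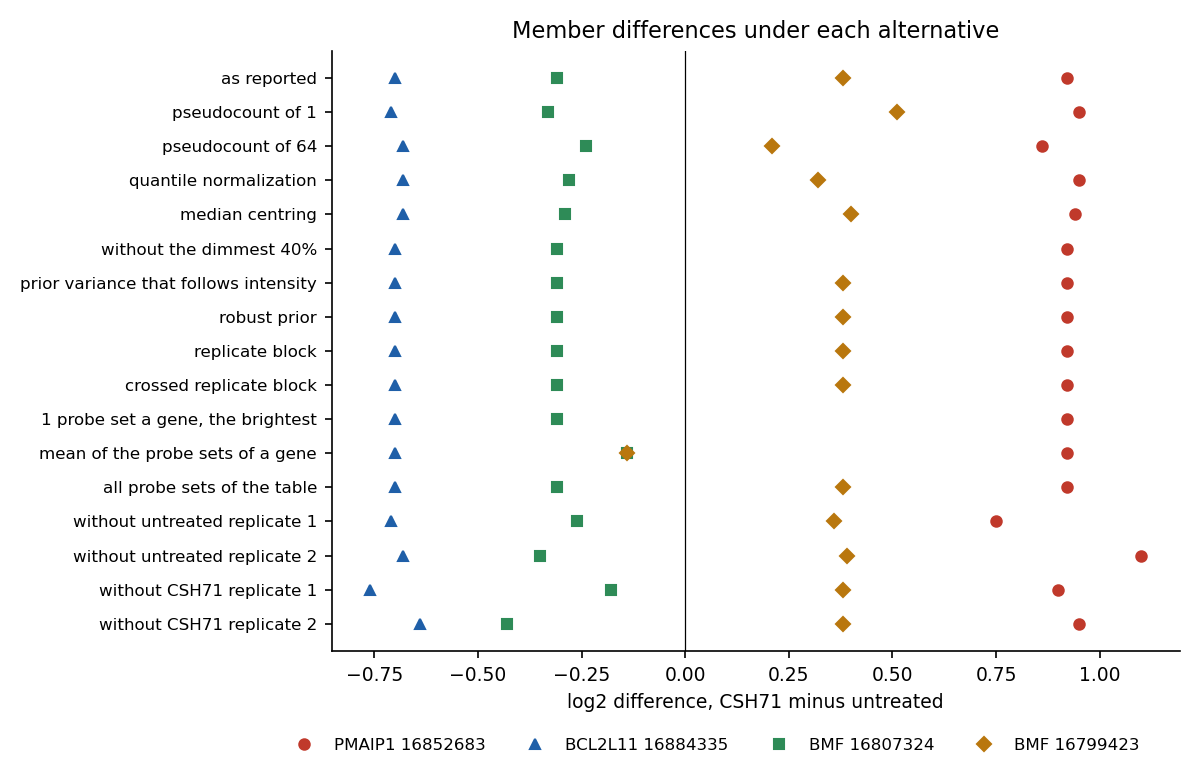
Log2 difference (CSH71 minus untreated, horizontal axis) of the 4 member probe sets as reported and under each alternative (rows). PMAIP1 runs from 0.75 to 1.10 and BCL2L11 from -0.76 to -0.64, and the BMF probe sets stay on opposite sides of 0 except where they are averaged (-0.14).

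Array medians lay between 71.5 and 81.1 over all probe sets. Of 14 listed T-cell markers 8 were measured, 6 of them brighter than the median probe set. The genes of the CD3 chains other than CD247 were not analysed here. Also brighter than the median were 3 of 3 measured B-cell markers and 3 of 4 natural killer markers. The same held for 1 of 5 monocyte and 2 of 5 epithelial and fibroblast markers. The summed intensity of the T-cell markers was 6665 to 6782 untreated and 6471 to 7000 treated. It was 600 to 822 over all arrays for 3 of 7 B-cell markers, 419 to 575 for 5 of 6 monocyte markers and 972 to 1032 for 4 of 6 natural killer markers. It was 2578 to 2931 for 5 of 7 epithelial and fibroblast markers, of which EPCAM alone gave 2062 untreated and 2056 treated. None of these markers passed in limma or was at 0 on all arrays, and the ranges of the treated and untreated arrays overlapped in all lists but the natural killer list, which was at 972 to 1001 and 1014 to 1032. The part of this list in the members' values was not tested.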

How the data were processed

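Total RNA of 4 HUT78 samples was labelled with the Affymetrix whole-transcript assay, per the labels. The deposited table holds intensities on a linear scale, made with Affymetrix Expression Console per the submitters' processing notes. No source used here gives its version, summarisation, background correction or normalization. Group and replicate came from the sample titles. Probe sets were named from the platform annotation (16098 with 1 symbol, 37519 without, all 16098 entrez identifiers found in the RefSeq table of GRCh38.p14, used for names and strands).

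Values were taken as log2(intensity + 16) without further normalization and compared with limma 3.58.1 (R 4.3.3), 2-sided, over all 16098 named probe sets, with Benjamini-Hochberg adjustment and a threshold of 0.05. Probe sets were kept apart because BMF has 2; list genes used their brightest one. The constant of 16 was chosen with the range of the values known. The members, the 12 lists (104 of 158 genes measured; 1 list is not reported here) and the naming rule were chosen with earlier results of these data known. The rule named all BH3-only, pro-survival and effector genes and up to 3 genes of each other list by smallest p. Alternatives were other constants, quantile normalization, median centring, a filter on dim probe sets, other variance priors, the replicate number as a block, other probe set choices and each array left out. The procedure was tested on simulated data, in 10 runs with 200 changed probe sets each. There limma called 12.3% of 2-fold and 91.5% of 4-fold changes, with 5.2 false calls among 109 calls per run. The simulated variances were drawn without regard to intensity, and the arrays gave 7 calls, so these rates may not hold for the arrays. A gene that did not pass may still differ, also by more than 2-fold. SGK1 at a log2 difference of 1.70 and EGR1 at 1.60 through its brighter probe set did not pass. Figures were drawn with matplotlib 3.10.9. The number of arrays limits the precision.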

Additional observations from a re-analysis of the deposited data

How the results depend on the processing

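With 2 arrays a group, counts of calls moved widely. The signs of PMAIP1 and BCL2L11 did not change in any alternative, but most alternatives could not change them. Variance priors, blocks, the dim filter and probe set choices left both differences as reported. Leaving out 1 array cannot reverse groups that do not overlap. The count of named probe sets called by limma was 7 as reported, and 39 with a constant of 64, 79 with median centring and 163 with a prior variance that follows intensity. It was 0 with a constant of 1 (838 at an unadjusted p under 0.05), 0 with quantile normalization (1034) and 0 over all probe sets of the table (602 among the named ones). Leaving out 1 array gave 0 without either untreated replicate (879 without replicate 1 and 656 without replicate 2 at an unadjusted p under 0.05), 7 without CSH71 replicate 2 and 22 without CSH71 replicate 1. Listed genes other than the members called numbered 1 as reported, 5 with a constant of 64, 4 with median centring, 3 without the dimmest 40%, 11 with a prior variance that follows intensity, and 0 with a constant of 1, with quantile normalization or over all probe sets; without 1 array they ranged from 0 to 3.

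With the replicate number as a block, 38 named probe sets and 3 listed genes were called, and the members' differences were the same. The numbers are not known to pair the samples: same-numbered deviations correlated at -0.291 over probe sets, and a crossed replicate block, added after the data had been seen, called 0 named probe sets (1383 at an unadjusted p under 0.05) and 0 listed genes.

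BMF probe set 16799423 moved from 0.38 to 0.51 with a constant of 1, 0.21 with a constant of 64, 0.32 with quantile normalization and 0.40 with median centring, each by more than its small replicate spread. The mean of both BMF probe sets was -0.14, which reverses 16799423 and shrinks 16807324, by the construction of the mean. Leaving out 1 array gave 0.75 to 1.10 for PMAIP1, -0.76 to -0.64 for BCL2L11, -0.43 to -0.18 for 16807324 and 0.36 to 0.39 for 16799423. No detection call or background level was given, so dim values bound nothing.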

Other observations

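BMF was not alone in having probe sets that disagree. Of 779 genes with several named probe sets, 328 (42.1%) had log2 differences of opposite sign, and 34 (4.36%) had 1 probe set higher and 1 lower in treated cells, each with groups that did not overlap. The gap between the BMF probe sets was 0.68, and 38 genes with opposite signs had a gap at least as large. Both conditions held for 12 genes, BMF among them; 3 others are CADM1, an adhesion molecule, SEPTIN4, whose ARTS isoform binds XIAP, and ANKRD54, chosen for naming after their values were seen. Among the listed genes, TXNIP, an inhibitor of thioredoxin, gave 0.38 and -0.13, and FOS, an AP-1 subunit, gave -0.10 and 0.26.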
